A study of Rattus norvegicus with 4 samples.

Results

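miR-21 and the miR-34 microRNAs are short RNAs widely studied as responders to tissue injury, and their levels were read in small RNA libraries of rat liver. They were taken by name, rno-miR-21, rno-miR-34a, rno-miR-34b and rno-miR-34c without an asterisk (rno for Rattus norvegicus, left out below), 4 of the 680 rat miRNA names listed, and all 4 had reads in each library. The study set liver labelled as hepatic fibrosis against liver labelled as normal, with 2 files in each group. The labels do not state how fibrosis was brought about, the strain, sex or age of the rats, or whether the 2 libraries of a group came from separate animals. Every name has the same value in the file of fibrosis replicate 2 as in that of normal replicate 2, with 0 differences. They were counted as 1 library, called the duplicated library, because its tissue cannot be told from labels that name both. The column header equals the sample title in the file of fibrosis replicate 2 but not in that of normal replicate 2. This alone does not settle which tissue was sequenced. Fibrosis replicate 1 and normal replicate 1 are the only libraries that stand under a single label, so the condition has no replicate on either side.

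A miRNA is cut from a hairpin precursor and guides a silencing complex to messenger RNAs, which it finds mainly by pairing through its seed, bases 2 to 8 counted from the 5′ end. miR-21 is abundant in many tissues. It is transcribed under STAT3 and AP-1, its maturation is raised by TGF-beta signalling, and it represses Pdcd4 and the TGF-beta inhibitor Smad7. It is widely reported as raised in fibrotic organs. miR-34a, miR-34b and miR-34c are direct transcriptional targets of the tumour suppressor p53 and repress cell cycle and survival genes, among them Bcl2 and the deacetylase Sirt1. In mice miR-34a is broadly expressed, while miR-34b and miR-34c, which share a transcript, are best known from testis and lung.

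The mature sequences are shown because they decide which names can be read as 1 family. All were matched by name to RefSeq on rat build GRCr8, each unstarred name being taken as the 5′ arm, and the capitals mark the seed.
miR-21: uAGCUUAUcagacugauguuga
miR-34a: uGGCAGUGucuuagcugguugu
miR-34b: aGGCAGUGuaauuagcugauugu
miR-34c: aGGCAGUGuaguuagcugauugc
miR-449a: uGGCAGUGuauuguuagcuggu
miR-449c-5p: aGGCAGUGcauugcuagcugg
The seed of miR-21 belonged to no other of the 693 mature names in the RefSeq table, whereas 5 of them carried the seed of miR-34a. These 5 were miR-34a, miR-34b, miR-34c, miR-449a and miR-449c-5p, and all are listed in the files. miR-34b and miR-34c are both 23 bases long and differ by 2 substitutions, A11G and U23C, with the base of miR-34b first and positions counted from the 5′ end. miR-34a matched miR-34b at 19 and miR-34c at 18 of 23 aligned positions. The rule by which the authors placed reads that match several names is not given in the sources used here, so the division of reads between miR-34b and miR-34c is uncertain.

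On GRCr8, mature miR-21 lies on the minus strand at chr10:71902653-71902674 and mature miR-34a on the plus strand at chr5:165815971-165815992. miR-34c and miR-34b lie on the minus strand at chr8:60306133-60306155 and chr8:60306657-60306679, and their hairpins are 441 bases apart. Both of these hairpins overlap the protein-coding gene Hoatz in the RefSeq gene table, that of miR-34a overlaps a long noncoding RNA gene, and that of miR-21 overlaps no other gene there. The hairpins of miR-21 and miR-34a show where the 2 arms that were counted separately come from, with both arms in capitals, the 5′ arm first.
miR-21 hairpin: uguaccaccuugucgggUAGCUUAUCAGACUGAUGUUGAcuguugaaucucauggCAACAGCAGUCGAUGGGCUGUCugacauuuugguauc
miR-34a hairpin: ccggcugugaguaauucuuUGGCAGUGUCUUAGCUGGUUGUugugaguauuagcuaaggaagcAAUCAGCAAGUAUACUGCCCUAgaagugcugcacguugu

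The deposited values are reads per 1000000 reads (RPM), and whole reads were recovered from their steps. The totals by which the RPM had been scaled, inferred from the same steps, were between 6357069 and 7070374 reads. Of these, 50.5% to 52.5% fell on listed miRNAs, and 1 read was worth 0.141 to 0.157 RPM. miR-122, the defining miRNA of hepatocytes, made up 48.3% of reads on miRNAs in fibrosis replicate 1, 47.2% in the duplicated library and 50.9% in normal replicate 1. The intervals below are 95% exact intervals of the reads. They cover no error but that of counting, as copies made by PCR were not told apart.

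miR-21 was among the most abundant miRNAs of every library. The row rno-miR-21 had 6492 reads in fibrosis replicate 1, or 934 RPM (911 to 957). In the duplicated library it had 7490 reads, or 1178 RPM (1152 to 1205), and in normal replicate 1 it had 7365 reads, or 1042 RPM (1018 to 1066). The library labelled only as fibrosis was thus the lowest of the 3 and the duplicated library the highest, and none of the 3 counting intervals overlapped another. miR-21 held place 12 of 250 detected miRNAs in fibrosis replicate 1, place 11 of 236 in the duplicated library and place 12 of 239 in normal replicate 1. Its share of the miRNA reads was 0.185% (0.181 to 0.190), 0.224% (0.219 to 0.229) and 0.202% (0.197 to 0.206) in the same libraries.

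**Figure D1:**
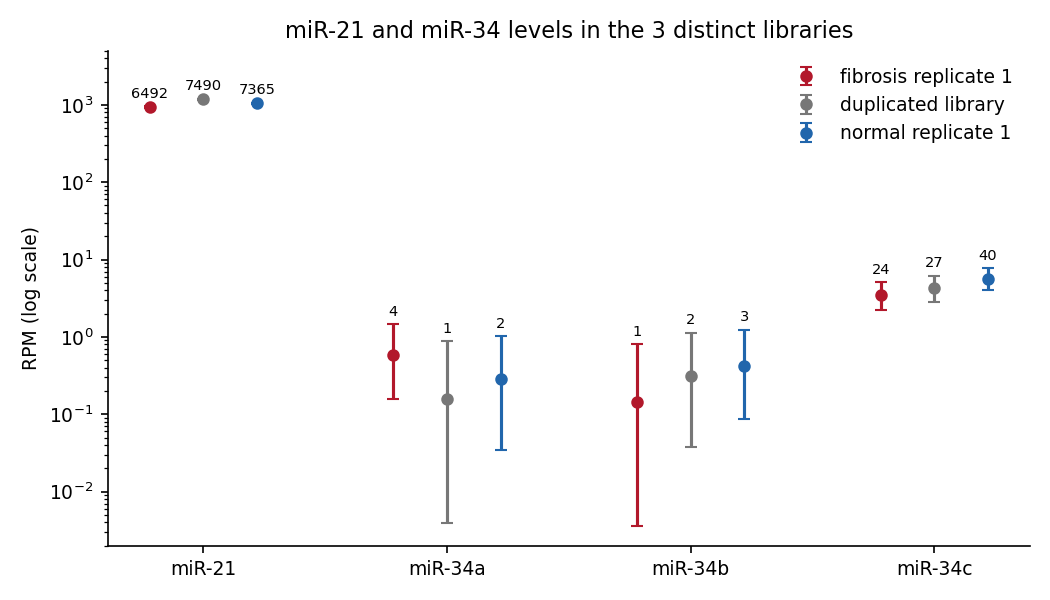
RPM on a log scale for the 4 miRNAs in the 3 distinct libraries, with 95% exact Poisson intervals as bars and the reads printed above each point. miR-21 lies near 1000 RPM in all libraries, miR-34c between 3.45 and 5.66 RPM, and miR-34a and miR-34b below 0.6 RPM with wide, overlapping intervals.

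Between fibrosis replicate 1 and normal replicate 1 the ratio of miR-21 was 0.897 (0.867 to 0.927), so the fibrosis library held slightly less. This ratio lay in the middle of those of the abundant miRNAs. Of the 76 that averaged 10 RPM or more in these 2 libraries, 31 had a lower ratio and 44 a higher one, and their median ratio was 0.926. An interval wholly below 1 was found for 34.2% of these 76 and one on either side of 1 for 57.9%, so an interval that excludes 1 was common at this depth. The size of the miR-21 difference, 0.16 on the log2 scale, was smaller than the median absolute difference of the 76, 0.24.

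The direction of the miR-21 difference depended on which label of the duplicated library is used. The duplicated library over normal replicate 1 gave a ratio of 1.13 (1.10 to 1.17), and fibrosis replicate 1 over the duplicated library gave 0.793 (0.767 to 0.820). If the duplicated library is counted as fibrosis, the group means were 1056 RPM in fibrosis and 1042 RPM in normal liver, a ratio of 1.01. If it is counted as normal, they were 934 RPM in fibrosis and 1110 RPM in normal liver, a ratio of 0.841. The duplicated library thus differed from each of the others by more than they differed from each other, and these libraries give miR-21 no settled direction. With fibrosis replicate 1 over normal replicate 1, the ratio stayed below 1 under each of the 5 other scalings, between 0.853 with upper-quartile factors and 0.939 with TMM factors.

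**Figure D2:**
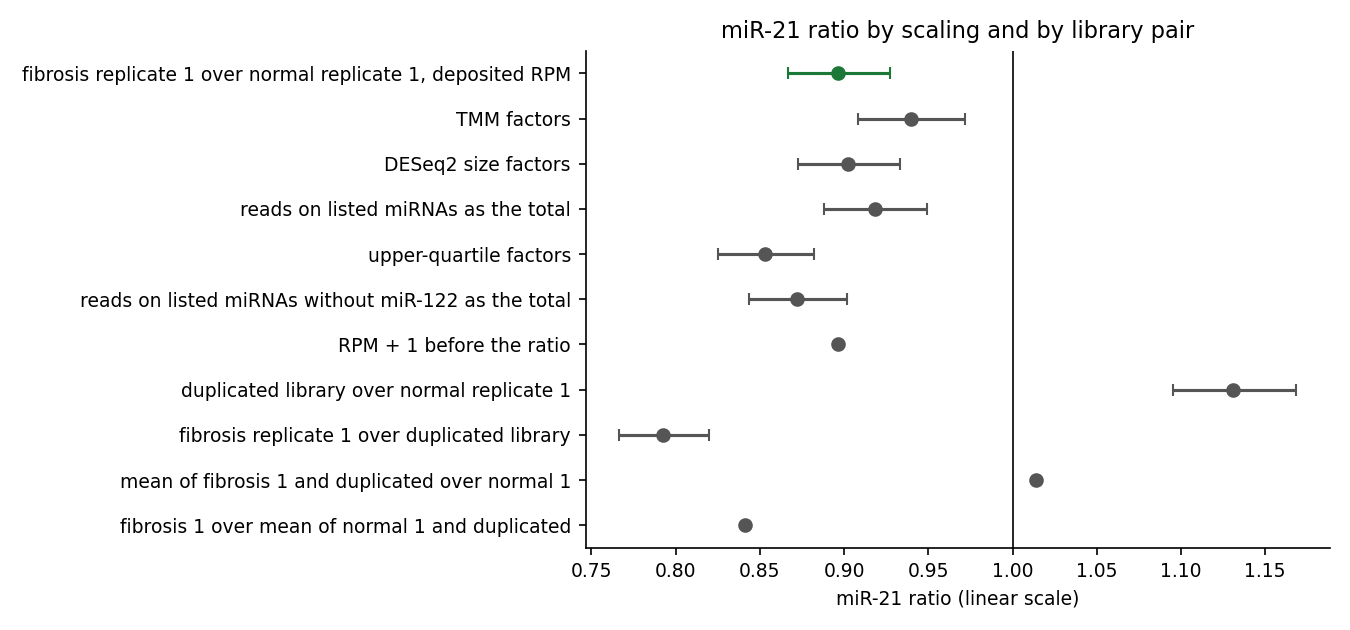
Ratio of miR-21 on a linear axis. The first row is fibrosis replicate 1 over normal replicate 1 in deposited RPM, the next 6 the same pair under other scalings or a pseudocount, and the last 4 use the duplicated library, with 95% counting intervals where both sides are single libraries. The values range from 0.793 to 1.13, and those above 1 are the 2 that set the duplicated library, alone or averaged with fibrosis replicate 1, over normal replicate 1.

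A ratio within a library needs no scaling total. miR-21 had 3.83 reads (3.74 to 3.92) per 1000 reads of miR-122 in fibrosis replicate 1, 4.75 (4.64 to 4.86) in the duplicated library and 3.96 (3.87 to 4.05) in normal replicate 1. The intervals of fibrosis replicate 1 and normal replicate 1 overlapped on this measure. Against miR-192, another miRNA of hepatocytes, miR-21 had 119 reads per 1000 (116 to 122.4) in fibrosis replicate 1, 157 (153 to 161) in the duplicated library and 117 (114 to 119) in normal replicate 1. Relative to miR-192 the order of fibrosis replicate 1 and normal replicate 1 was turned round, with overlapping intervals, because miR-192 itself had a ratio of 0.876 (0.866 to 0.886). The duplicated library stood above both on each measure. In bulk tissue, fewer cells of a type and less RNA per cell cannot be told apart.

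Nearly all miR-21 reads came from the 5′ arm. The 3′ arm, miR-21*, had 1 read in fibrosis replicate 1, 3 in the duplicated library and 4 in normal replicate 1. It made up 0.0154% of the reads of both arms in fibrosis replicate 1 (0.00039 to 0.0858), 0.040% in the duplicated library (0.00826 to 0.117) and 0.0543% in normal replicate 1 (0.0148 to 0.139). These intervals overlap, so a difference in arm use was not detectable at this depth.

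By mean RPM over the 3 libraries miR-21 held place 11. The next above it were miR-29a, a repressor of collagen genes, at a mean of 1643 RPM, and miR-101b at 1288 RPM, and the next below were miR-423* at 980 RPM and miR-140* at 869 RPM. The order near miR-21 changed between libraries. miR-423* stood above it in fibrosis replicate 1, at 1075 RPM, and in normal replicate 1, at 1237 RPM, but at 630 RPM in the duplicated library. miR-140* kept between 860 and 880 RPM in all 3 libraries, with a ratio of 1.01 (0.978 to 1.05).

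The miR-34 reads were few, and most of them were miR-34c. miR-34c had 24 reads in fibrosis replicate 1, 27 in the duplicated library and 40 in normal replicate 1, or 3.45 RPM (2.21 to 5.14), 4.25 RPM (2.80 to 6.18) and 5.66 RPM (4.04 to 7.70). The 3 intervals overlap, with normal replicate 1 the highest. rno-miR-34a, the member most often linked to liver injury, had 4 reads in fibrosis replicate 1, 1 in the duplicated library and 2 in normal replicate 1, or 0.575 RPM (0.157 to 1.47), 0.157 RPM (0.00398 to 0.876) and 0.283 RPM (0.0343 to 1.02). miR-34b had 1, 2 and 3 reads in the same libraries, or 0.144 RPM (0.00364 to 0.802), 0.315 RPM (0.0381 to 1.14) and 0.424 RPM (0.0875 to 1.24). Both had a handful of reads at most, and their intervals overlap in every library.

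miR-34c took 82.8% of the miR-34 reads in fibrosis replicate 1 (64.2 to 94.2), 90.0% in the duplicated library (73.5 to 97.9) and 88.9% in normal replicate 1 (75.9 to 96.3). It exceeded miR-34a by 6 reads to 1 in fibrosis replicate 1 (2.06 to 23.8), by 27 to 1 in the duplicated library (4.45 to 1105) and by 20 to 1 in normal replicate 1 (5.19 to 171), each interval lying above 1. The order miR-34c over miR-34a thus held in each library beyond counting error, while miR-34a and miR-34b could not be ordered. The names compared have nearly the same length, but small RNA ligation can favour some sequences over others, and its part in this order was not tested.

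By abundance miR-34c held place 102 of 250 detected miRNAs in fibrosis replicate 1, 92 of 236 in the duplicated library and 90 of 239 in normal replicate 1. miR-34a held places 154, 200 and 171, shared with names of the same count, and miR-34b places 204, 171 and 165. miR-21 outnumbered the 3 miR-34 miRNAs together by 224 to 1 (156 to 335) in fibrosis replicate 1, 250 to 1 (175 to 370) in the duplicated library and 164 to 1 (122.2 to 225) in normal replicate 1.

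**Figure D3:**
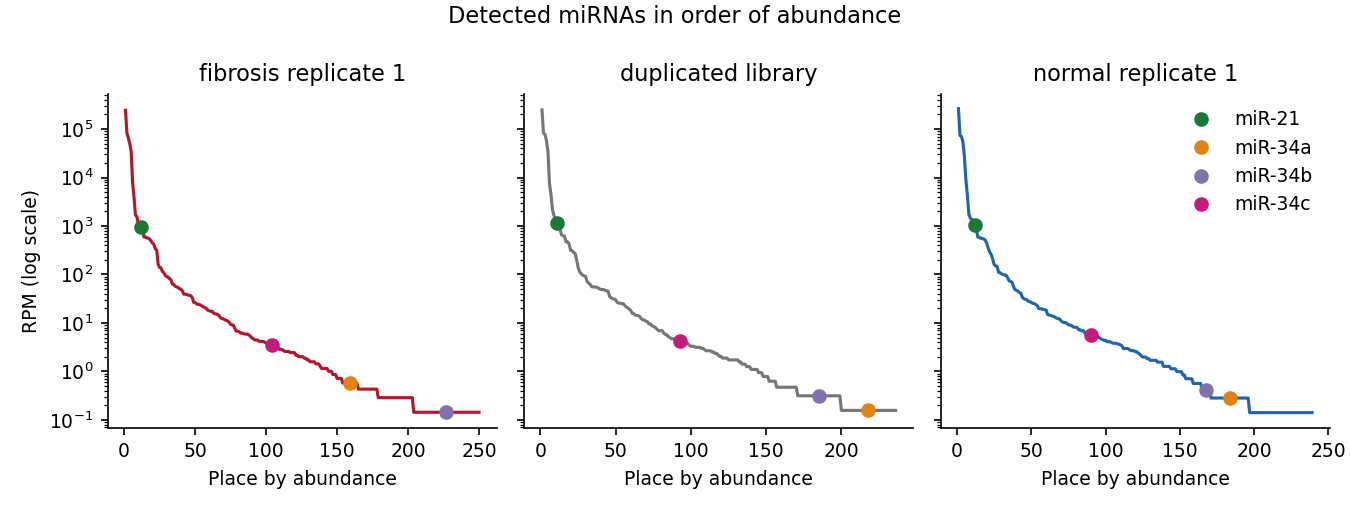
RPM on a log scale of the detected miRNAs in order of abundance, 1 panel per library, with the 4 miRNAs marked (at the middle of their tie where names share a count). miR-21 sits at place 11 or 12, miR-34c between places 90 and 102, and miR-34a and miR-34b on the steps of 1 to 4 reads at the low end.

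The other arms and seed relatives were at the limit of detection. miR-34a* had 1 read in fibrosis replicate 1 and 0 in the duplicated library and in normal replicate 1. miR-34b* had 1 read in the duplicated library and 0 in fibrosis replicate 1 and normal replicate 1. miR-34c* had 0 reads in all 3, although its 5′ arm was the most abundant of the family. miR-449a, which shares the miR-34 seed and is known from ciliated epithelium, had 2 reads in fibrosis replicate 1, 0 in the duplicated library and 1 in normal replicate 1, and miR-449c-5p had 0 in each. With 3 reads taken as the one-sided limit where no read was found, the level may still be as high as 0.432 RPM in fibrosis replicate 1, 0.472 RPM in the duplicated library and 0.424 RPM in normal replicate 1.

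In the deposited RPM no member of the miR-34 family differed between fibrosis replicate 1 and normal replicate 1 beyond counting error. The ratio was 2.03 for miR-34a (0.292 to 22.5), 0.339 for miR-34b (0.00646 to 4.22) and 0.610 for miR-34c (0.352 to 1.04). With upper-quartile factors the interval of miR-34c fell below 1, at 0.581 (0.335 to 0.987). The 3 together had 29 reads in fibrosis replicate 1, 30 in the duplicated library and 45 in normal replicate 1, and a ratio of 0.655 (0.396 to 1.07) of fibrosis replicate 1 over normal replicate 1. miR-34a and miR-34b rest on few reads on both sides, 4 against 2 and 1 against 3. Among all 277 miRNAs with a read in either of these libraries, 19.5% had an interval that excluded 1, and 0 of the 3 miR-34 miRNAs did. Among the 147 with a mean of at least 1 RPM, which of the miR-34 miRNAs only miR-34c reached, 11 had a lower ratio than miR-34c, 22.4% had an interval below 1 and 13.6% one above, and the median ratio was 0.916.

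Depth limits what the miR-34 counts could have shown. With 2 reads of miR-34a in normal replicate 1, fibrosis replicate 1 would have needed 10 reads, a 5.09-fold ratio, for an interval above 1, and no count, not even 0, would have given one below 1. For miR-34b the need was 12 reads, a 4.07-fold ratio, and again no count would have given an interval below 1. For miR-34c it was 60 reads, a 1.53-fold ratio, or 22 reads or fewer for an interval below 1, against the 24 found. The duplicated library over normal replicate 1 gave 0.556 for miR-34a (0.00943 to 10.7), 0.741 for miR-34b (0.0619 to 6.47) and 0.751 for miR-34c (0.443 to 1.25). Fibrosis replicate 1 over the duplicated library gave 3.66 for miR-34a (0.362 to 180), 0.457 for miR-34b (0.00775 to 8.78) and 0.813 for miR-34c (0.449 to 1.46). miR-34c thus had its highest value in normal replicate 1 and a ratio below 1 in each pairing, and miR-34a lay on both sides of 1, all within counting error in the deposited RPM.

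**Figure D4:**
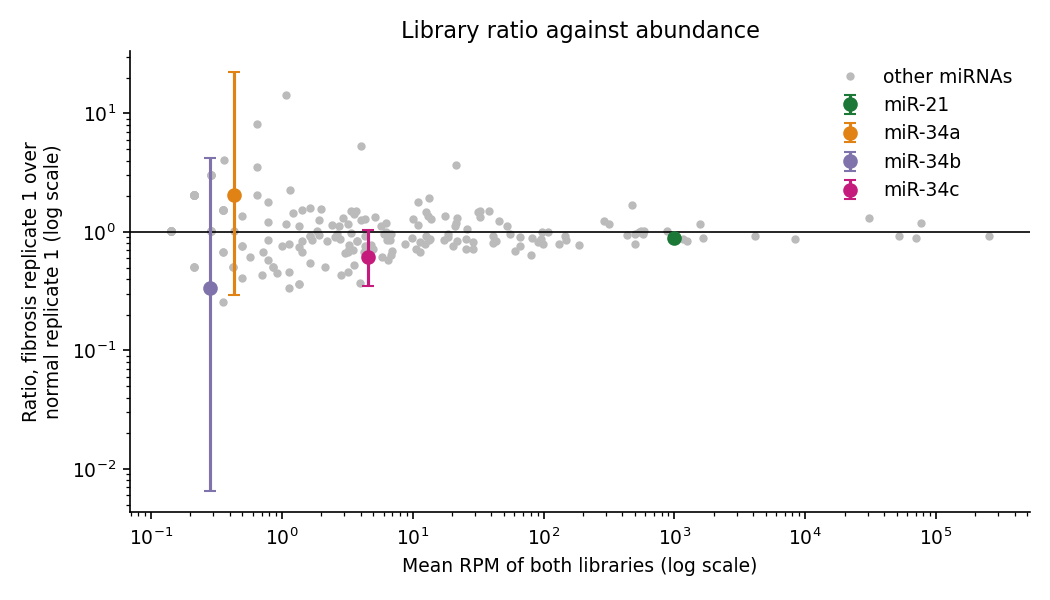
Ratio of fibrosis replicate 1 over normal replicate 1 against mean RPM, both on log scales, for the 212 miRNAs with reads in both libraries, with 95% counting intervals on the 4 named miRNAs. miR-21, at 0.897, lies within the narrow band of abundant miRNAs, and the intervals of miR-34a, miR-34b and miR-34c include 1.

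The labelled groups, fibrosis against normal liver, were compared in a fit over all 294 miRNAs seen in any file with limma on log2(RPM + 1), and 0% were called at an adjusted p under 0.05. At an unadjusted p under 0.05 limma had 4 miRNAs, edgeR's quasi-likelihood test on the recovered reads had 1 without a filter and 0 after filtering, and DESeq2 had 0. On the log2(RPM + 1) scale, which understates the change of low miRNAs, the fitted difference of fibrosis over normal was -0.079 for miR-21 (SE 0.23), 0.15 for miR-34a (SE 0.23), -0.16 for miR-34b (SE 0.23) and -0.29 for miR-34c (SE 0.42). Each of these had an adjusted p of 1 by limma. This fit holds 1 library in both groups, which pulls each difference to the middle between 0 and that of fibrosis replicate 1 over normal replicate 1, so the absence of calls does not show that the tissues are alike. In it limma took the spread of each miRNA from the trend over all miRNAs, not from that miRNA's own values. The duplicated library cannot be of both tissues, so the spread within a group may itself hold a difference between the tissues. Since nothing says that the libraries came from separate animals, this spread may also be technical. The p-values therefore do not measure the spread between animals.

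Counting the duplicated library once leaves a group without a replicate, so only the fitted differences are given here. The fitted difference of miR-21 was then 0.010 with the library as fibrosis and -0.25 with it as normal. That of miR-34a was 0.074 and 0.37, that of miR-34b -0.22 and -0.26, and that of miR-34c -0.46 and -0.41. The sign of miR-21 turned with the label, and those of miR-34a, miR-34b and miR-34c did not. The miR-34 directions are no more settled for that, since their ratios between libraries lay within counting error in the deposited RPM.

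The miRNAs with the pattern most like that of miR-21 over the 3 libraries were miR-195, miR-497, let-7f, let-7a and miR-31. Likeness was the distance between log2 RPM values centred on each miRNA's own mean, and it was 0.034, 0.040, 0.084, 0.11 and 0.11 for these, against a median of 0.38 over 72 candidates. miR-195, of the miR-15 and miR-16 seed family, had 24.0 RPM in fibrosis replicate 1, 30.05 in the duplicated library and 27.4 in normal replicate 1. miR-497, made with miR-195 from 1 transcript, had 16.0, 20.6 and 18.5 RPM. The ratio of fibrosis replicate 1 over normal replicate 1 was 0.876 (0.708 to 1.08) for miR-195 and 0.862 (0.663 to 1.12) for miR-497. Both lay within counting error, unlike those of let-7f, let-7a and miR-31, so the place of these 2 nearest to miR-21 is uncertain. For miR-34c the nearest were miR-143, a miRNA of smooth muscle and fibroblasts, miR-194, miR-22, miR-101a and miR-16, at distances from 0.24 to 0.28, against a median of 0.56 over 73 candidates. miR-34a and miR-34b had too few reads for such a ranking, and with 3 libraries many miRNAs come close by the shape of 2 differences alone. The ranking for miR-34c rests on 24 reads in fibrosis replicate 1, 27 in the duplicated library and 40 in normal replicate 1. Its counting intervals overlap across these libraries, so the order of its neighbours is uncertain.

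Other miRNAs described as p53-responsive were mostly lower in fibrosis replicate 1 than in normal replicate 1. Of 13 listed, 12 had a row, miR-34b and miR-34c among them, and 9 reached a mean of 1 RPM. All 9 had a ratio below 1 in the deposited RPM, 6 with an interval below 1 (22.4% over all 147 miRNAs at that level). These 6 averaged 10 RPM or more, where 34.2% of all 76 miRNAs had an interval below 1. miR-107 moved above 1 with TMM factors, with DESeq2 size factors and with the reads on miRNAs as the total. By limma 0 of the 12 passed. Their median log2 ratio was -0.39, against -0.13 over the 147, of which 95 were lower and 52 higher. Below 1 RPM, miR-215 had 3 reads in fibrosis replicate 1 and 2 in normal replicate 1, a ratio of 1.53 (0.175 to 18.3). miR-192, a hepatocyte miRNA, had 7826 RPM in fibrosis replicate 1, 7492 in the duplicated library and 8936 in normal replicate 1, and miR-107 had 539, 471 and 541 RPM with a ratio of 0.995 (0.951 to 1.04). miR-22 had a ratio of 0.798 (0.717 to 0.888) and miR-143 of 0.639 (0.565 to 0.721). The list overlaps hepatocyte and mesenchymal markers, holding miR-192, miR-194, miR-143 and miR-145.

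The miRNAs described as responsive to STAT3, NF-kB or AP-1, the factors known to act on miR-21, lay on both sides. Of 8 listed and with a row, 5 reached 1 RPM, with 3 higher and 2 lower, 2 intervals above 1 and 0 below, and a median log2 ratio of 0.26. Over all 147 miRNAs at that level 13.6% had an interval above 1 and 22.4% one below. miR-221, the most abundant of the 5, had 39.0 RPM in fibrosis replicate 1, 31.1 in the duplicated library and 42.6 in normal replicate 1, and miR-181b had 15.0, 8.81 and 10.2 RPM. miR-146b, a brake on inflammatory signalling, had 33.7 RPM in fibrosis replicate 1, 33.2 in the duplicated library and 9.19 in normal replicate 1. Its relative miR-146a had 7.77, 10.9 and 9.76 RPM, in the same order of libraries as miR-21. That order of miR-146a rests on 54, 69 and 69 reads. Its ratio of fibrosis replicate 1 over normal replicate 1 was 0.796 (0.547 to 1.15), within counting error. miR-212 had 0 reads in each library.

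Of 10 miRNAs described as induced or processed under TGF-beta beside miR-21, all had a row, miR-10a as miR-10a-5p, and 8 reached 1 RPM. Of these 5 were higher and 3 lower, with 4 intervals above 1 and 2 below, against 13.6% above and 22.4% below over all 147 miRNAs at that level. Their median log2 ratio was 0.29, against -0.13 over the 147. After miR-192 the most abundant was miR-10a-5p, with 89.9 RPM in fibrosis replicate 1, 55.2 in the duplicated library and 103 in normal replicate 1, a ratio of 0.873 (0.783 to 0.973). miR-23a had 55.4, 49.4 and 49.1 RPM, with a ratio of 1.13 (0.974 to 1.31). miR-27a had 6.76 RPM in fibrosis replicate 1, 11.5 in the duplicated library and 1.27 in normal replicate 1, a ratio of 5.31 (2.57 to 12.3). miR-24 had 37.3, 48.8 and 28.0 RPM, with a ratio of 1.33 (1.10 to 1.61). For miR-27a and miR-24, fibrosis replicate 1 and the duplicated library exceeded normal replicate 1, unlike miR-21, which fibrosis replicate 1 held at the lowest level. miR-181a, at 37.5, 25.0 and 25.5 RPM, and miR-181b, at 15.0, 8.81 and 10.2 RPM, also had intervals above 1. Neither was higher in the duplicated library than in normal replicate 1. Of the 7 STAT3, NF-kB or AP-1 miRNAs and the 9 TGF-beta miRNAs with a read in any file, 0 passed limma. The lists overlap, so their counts are not separate. From the TGF-beta list, miR-181b, with a ratio of 1.47 (1.08 to 2.01), is also in the STAT3, NF-kB or AP-1 list. miR-192 and miR-215 are also in the p53-responsive list.

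**Figure D5:**
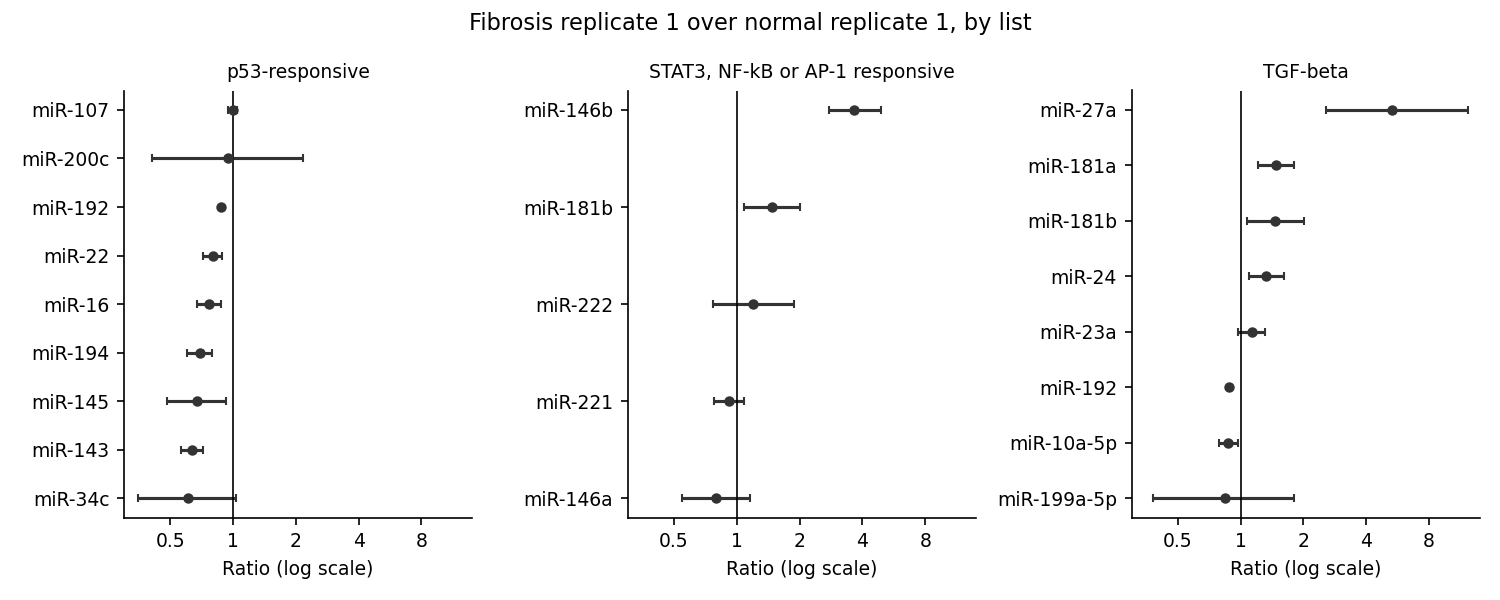
Ratio of fibrosis replicate 1 over normal replicate 1 on a log axis, with 95% counting intervals, for the members of 3 lists with a mean of at least 1 RPM. All 9 p53-responsive miRNAs lie below 1 in the deposited RPM (miR-107, at 0.995, moves above it under 3 other scalings), while the other lists have members on both sides, led by miR-146b at 3.66 and miR-27a at 5.31.

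Summed markers of cell types also varied between the libraries, in part within counting error. The summed level of 5 stellate or other mesenchymal miRNAs was 669 RPM in fibrosis replicate 1, 1009 RPM in the duplicated library and 466 RPM in normal replicate 1, most of it miR-199a-3p, and 2 of the 5 were higher and 3 lower in fibrosis replicate 1 than in normal replicate 1. The 4 leukocyte miRNAs summed to 41.9, 59.6 and 28.0 RPM in the same libraries, most of it miR-142-5p, and the 2 erythroid miRNAs to 2.88, 2.05 and 7.78 RPM. The 2 endothelial names summed to 7.77, 10.9 and 6.51 RPM. Their intervals of fibrosis replicate 1 over normal replicate 1 included 1, 0.573 to 4.30 for miR-126 and 0.708 to 1.79 for miR-126*. The 3 hepatocyte miRNAs summed to 251792, 255470 and 272148 RPM. None of these markers was at 0 in any of the 3 libraries. The mesenchymal, leukocyte and endothelial sums were highest in the duplicated library, as miR-21 was. They were lowest in normal replicate 1, where miR-21 was not lowest. The mesenchymal order is that of miR-199a-3p and miR-214. miR-143, at 62.1, 91.2 and 97.3 RPM, and miR-145, at 9.21, 6.92 and 13.7 RPM, were highest in normal replicate 1. The leukocyte order is that of miR-142-5p, miR-223 and miR-150, while miR-142-3p, with 3, 4 and 5 reads, was highest in normal replicate 1. The part of these cell types in the miR-21 and miR-34 levels was not tested.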

How the data were processed

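Small RNA libraries of rat liver were built from total RNA with Illumina's small RNA kit, as the labels' protocols state. CASAVA 1.4 and build rn5 are named per the submitters' processing notes. For the aligner and the miRNA annotation, the sources used here give no name. The authors deposited RPM values, 1 per miRNA name, in 4 files. The column header of fibrosis replicate 2 is its sample's title, and that of normal replicate 2 is not. Dividing the RPM by the worth of 1 read yielded whole reads in 100% of the nonzero values (tolerance 0.01 reads).

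Ratios carry exact (Clopper-Pearson) intervals of the reads of 1 library among both, and levels exact Poisson intervals (Python 3.11.15, scipy 1.17.1). The fit across all miRNAs used limma 3.58.1 (R 4.3.3) with a trend of variance on abundance and adjustment by Benjamini-Hochberg. It assumes independent libraries, which these files do not supply. edgeR 4.0.16 (quasi-likelihood test) and DESeq2 1.42.0 on the recovered reads, other scalings, pseudocounts, filters, the replicate block and left-out libraries were alternatives. An exact permutation test of 2 against 2 has 0.333 as its smallest p. Sequences came from RefSeq, build GRCr8, and Biopython 1.88 aligned them.

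The members and lists were chosen with earlier results of these data known. Named beside the members are their starred arms, listed miRNAs of the same seed, the 2 neighbours of miR-21 on each side in mean RPM, the 5 most alike in pattern among those that average 10 RPM or more (for members with at least 10 reads in each library), and list members. The rule for lists took at most 4 of the most abundant members. miR-27a, miR-181a, miR-212 and miR-215 were named after their values were seen. From the lists, miR-15a was not analysed here.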

Additional observations from a re-analysis of the deposited data

How the results depend on the processing

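The number of calls was 0 in each of the 14 alternatives to the fit, including the replicate block, where the differences were again -0.079 for miR-21 and 0.15 for miR-34a with an adjusted p of 0.602 by limma. Whether replicate numbers pair the libraries cannot be judged, since the pair numbered 2 is 1 library. Leaving out each library in turn left a group without a replicate, so the absence of calls there says little. The differences then ran from -0.25 to 0.089 for miR-21 and from -0.074 to 0.37 for miR-34a. miR-21 turned positive without fibrosis replicate 1 (0.089) and without normal replicate 2 (0.010, the same fit as the duplicated library counted once in fibrosis), and miR-34a turned negative without fibrosis replicate 1. Without fibrosis replicate 1 or normal replicate 1, only the duplicated library stands for 1 of the groups and it stays in the other. The miR-21 ratio of 0.897 became 0.939 with TMM factors, 0.853 with upper-quartile factors, 0.793 for fibrosis replicate 1 over the duplicated library and 0.841 over the mean of normal replicate 1 and the duplicated library. It turned to 1.13 for the duplicated library over normal replicate 1 and to 1.01 with the duplicated library averaged into fibrosis. Both averages, and all alternatives for miR-34b, miR-34c and the miR-34 sum, were added after the data were seen. The ratios of miR-34a, miR-34b, miR-34c and their sum stayed inside their own counting intervals in each of the 10 alternatives, that of miR-34a between 0.556 and 3.66, although the interval of miR-34c left 1 with upper-quartile factors. Filters at a mean of 1 RPM, and edgeR's own filter, removed miR-34a and miR-34b, which have no value there. The limma fit over all 680 listed names was unreliable, since most of the names were at 0 in all files. Depth limits miR-34a and miR-34b, with at most 4 reads in a library.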
